A study of Mus musculus with 6 samples.

Results

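Secreted Wnt antagonists are proteins that lie outside the cell and bind Wnt ligands or act at the receptors. The name is used here for gene families, whose members need not all be inhibitors. The genes described here are the 5 members of the secreted Frizzled-related protein (SFRP) family (Sfrp1, Sfrp2, Frzb, Sfrp4 and Sfrp5), the Wnt inhibitory factor gene Wif1, and the Dickkopf genes Dkk2 and Dkk3. These 8 genes, of 45706 in the table, were selected by family name with results of the DKK1 comparison of these same libraries in view, so their differences between the groups are a description and not independent evidence. The adjusted p-values given for them come from a fit across all genes and state only whether a gene was called in that fit. The cells were lung fibroblasts cultured from wild-type mice, of which 3 samples were left untreated (control) and 3 were given recombinant mouse DKK1 protein at 30 ng/ml for 24 hours; strain, age and sex are not in the labels. RNA was sequenced, and libraries held 22565917 to 34727102 counts. The labels do not say whether replicates were separate cultures or animals, so p-values measure the spread between these samples, which may be technical.

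Wnt ligands bind a Frizzled receptor together with the co-receptor LRP5 or LRP6, and the signal stabilises beta-catenin. SFRP proteins carry a cysteine-rich domain that resembles that of Frizzled and bind Wnt ligands directly, as WIF1 does through a domain of its own. Dickkopf proteins of the DKK1 type act at LRP5 and LRP6 instead, and DKK3 is a divergent member of that family. In lung mesenchyme these pathways shape development and repair.

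The promoters of Sfrp2, Frzb and Dkk2 are shown because Sfrp2 and Frzb were higher with DKK1 while Dkk2 was not. RefSeq (GRCm38.p6) promoter windows of 250 bases before to 50 after the gene start were found for 5 of the 8 genes: Sfrp2, Frzb, Sfrp5, Wif1 and Dkk2. Each window was searched on both strands for the TCF/LEF core CTTTGA, the AP-1 site TGANTCA and an NF-kB consensus. The TCF/LEF core was present in 16.0% of all 32851 windows, the AP-1 site in 7.81% and the NF-kB consensus in 0.411%. The only match among the 5 windows was 1 TCF/LEF core in that of Frzb, on the opposite strand, 95 bases before the RefSeq start. The other 4 windows held no match to any of the 3 motifs. The bases before the start are given for Sfrp2 (chr3:83766071-83766320, plus strand) and Dkk2 (chr3:132085042-132085291, plus strand). For Frzb the 30 bases around the match are given (chr2:80447474-80447503, minus strand). The GENCODE model of this gene begins further upstream, at 80447625, inside the window. By that model the match lies within the gene and not before its start. Capitals mark the match.
Sfrp2: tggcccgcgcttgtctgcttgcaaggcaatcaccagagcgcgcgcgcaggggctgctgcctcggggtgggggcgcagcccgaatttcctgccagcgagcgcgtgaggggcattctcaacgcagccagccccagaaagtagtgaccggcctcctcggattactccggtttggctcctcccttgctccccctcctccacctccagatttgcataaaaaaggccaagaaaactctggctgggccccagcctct
Frzb: tcccctgaaaacTCAAAGccttctcggaag
Dkk2: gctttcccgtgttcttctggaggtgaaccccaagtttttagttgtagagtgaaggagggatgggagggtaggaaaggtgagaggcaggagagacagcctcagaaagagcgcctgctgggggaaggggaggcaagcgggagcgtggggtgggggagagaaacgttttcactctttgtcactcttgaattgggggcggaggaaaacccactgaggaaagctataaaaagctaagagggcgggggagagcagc

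Some features of the libraries bear on every gene below. Replicate 3 of both groups held the most RNA of other lung cell types. Levels are given in counts-per-million units (CPM), a share of the library total. The summed level of 7 epithelial markers was 40.2 to 125 CPM in control and 37.6 to 125 CPM in DKK1 libraries, that of 6 endothelial markers 23.8 to 64.4 and 21.7 to 63.0 CPM, that of 7 leukocyte markers 384 to 774 and 411 to 792 CPM, and that of 5 mesothelial markers 23.3 to 53.5 and 24.6 to 55.3 CPM. In each of these 4 lists the ranges of the groups overlapped and replicate 3 was the highest of its group, and Cd3e, a T cell marker, was at 0 in all libraries. The 8 fibroblast markers summed to 10600 to 12100 CPM in control and 9960 to 11500 CPM in DKK1 libraries, and Col1a1 alone was at 5940 and 5550 CPM on average. The 6 smooth muscle and pericyte markers summed to 6680 to 7430 CPM in control and 5610 to 6600 CPM in DKK1 libraries, a sum made up mostly of Acta2 (5930 and 5140 CPM on average, not called by group only, edgeR adjusted p = 0.3). Of that list, 1 marker (Myh11) was called lower in the fit by group only, beside 0.198% of all tested genes. In a fit that adds the replicate number (the replicate block), 5 of the smooth muscle and pericyte markers were called lower. In that fit 2 fibroblast markers were called higher (Dcn and Pdgfra) and 4 lower (Col1a1, Col1a2, Pdgfrb and Thy1). Of 7 adventitial fibroblast markers 1 was called higher (again Dcn) and 1 lower (Col14a1), and of 7 alveolar fibroblast markers 1 lower (Limch1). For leukocyte markers, 1 was called higher (Adgre1) and 1 lower (Csf1r). Of all tested genes, 4.96% were called higher and 4.46% lower in that fit. The part of these cell markers in the results below was not tested. In bulk RNA, fewer cells of a type and less RNA per cell cannot be told apart.

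Among the 8 antagonist genes, 3 SFRP genes were higher with DKK1, the 2 Dickkopf genes were not called by group only, and the remaining 3 were barely detected. Genes were compared by edgeR's quasi-likelihood test on all 14635 genes that passed a low-count filter, and a gene was called at a Benjamini-Hochberg adjusted p under 0.05. The filter kept Sfrp1, Sfrp2, Frzb, Dkk2 and Dkk3, each with at least 26 counts in every library, and removed Sfrp4, Sfrp5 and Wif1. In the fit by group only, Sfrp1, Sfrp2 and Frzb were called higher and 0 of the 8 were called lower, beside 0.697% of all tested genes called higher and 0.198% lower; without adjustment 4 of the 5 tested had a p under 0.05 (Dkk2 being the lower one), beside 1544 of all 14635 tested genes. With the replicate number as a block, the same 3 genes were called higher and Dkk2 and Dkk3 were called lower, beside 4.96% and 4.46% of all genes; DESeq2 with the block called neither (adjusted p = 0.496 and 0.0727). Control and DKK1 libraries were fully separated, with no overlap, for 4 of the 5 (all but Dkk3), beside 16.5% of all tested genes. Since the choice of genes used this contrast, nothing is read from these counts.

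**Figure D1:**
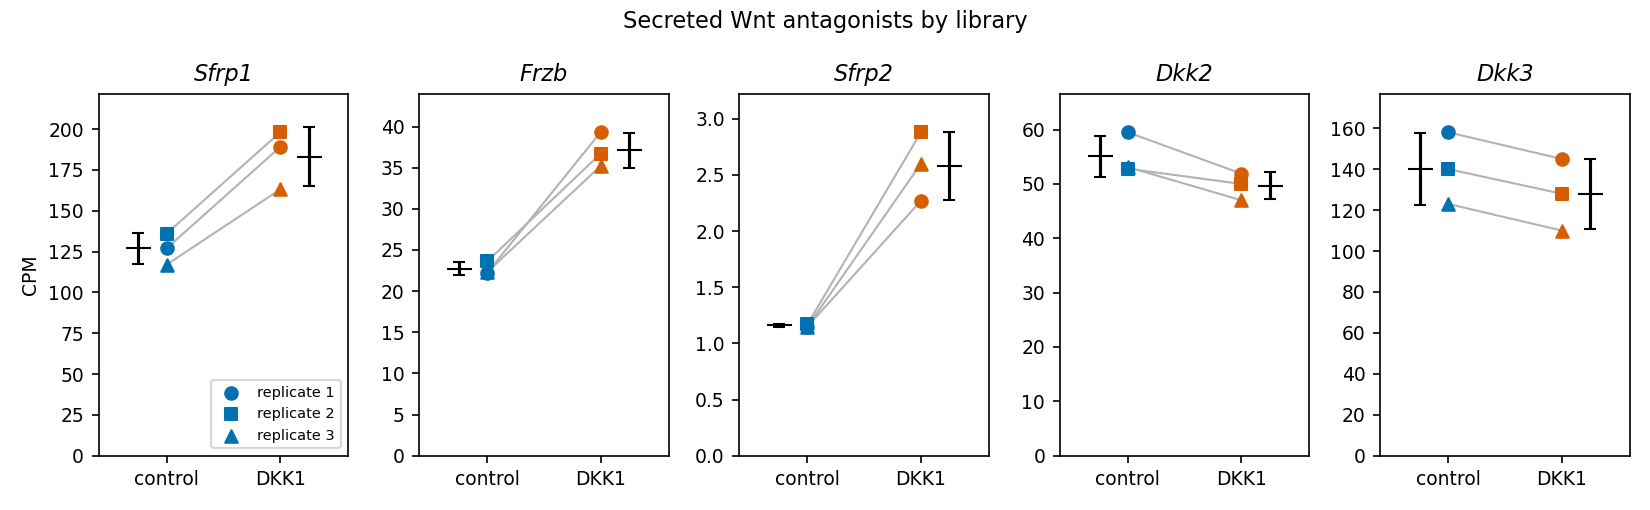
Level in CPM (linear axis from 0) of the 5 tested antagonist genes in each control and DKK1 library. Symbols mark the replicate number, grey lines join samples of the same number, and black bars are the mean ± SD of 3 libraries. The 3 SFRP genes lay higher in every DKK1 library than in any control library, and Dkk2 lay lower in every DKK1 library. Such full separation held for 16.5% of all tested genes. Dkk3 overlapped between the groups but was lower in each same-numbered DKK1 sample.

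Sfrp1 (ENSMUSG00000031548, GRCm38 chromosome 8, 23411502 to 23449632, plus strand) encodes an SFRP that binds Wnt ligands outside the cell. Its level was 127, 136 and 117 CPM in control replicates 1 to 3 and 189, 198 and 163 CPM in DKK1 replicates 1 to 3. The lowest DKK1 library was above the highest control library, and replicate 3 was the lowest of both groups. The means were 127 ± 9.37 and 183 ± 18 CPM (SD, n = 3 each). The log2 fold change was 0.53 (SE 0.08, 95% interval 0.35 to 0.71, edgeR adjusted p = 0.026), a 1.44-fold rise. Same-numbered samples differed by 1.48-, 1.46- and 1.4-fold. When 1 sample was left out the call was lost in 5 of the 6 fits, with adjusted p up to 0.137 and log2 fold changes of 0.465 to 0.608; it was kept without DKK1 replicate 3. Blocking by replicate in edgeR gave Sfrp1 an adjusted p of 4.11e-08. It was also called in the blocked fits that left out 1 pair, with adjusted p of 1.33e-48 to 6.18e-05. The lowest of these, without pair 1, lay far below the value from all libraries. Fewer data cannot give firmer evidence, so no strength is read from the fits with a pair left out.

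Frzb (ENSMUSG00000027004, chromosome 2, 80411970 to 80447625, minus strand) encodes the protein also known as sFRP3, first described in cartilage. It measured 22.2, 23.6 and 22.3 CPM in control and 39.3, 36.7 and 35.2 CPM in DKK1 replicates 1 to 3. The control libraries lay close together and all DKK1 libraries were well above them. The means of 22.7 ± 0.789 and 37.1 ± 2.08 CPM (SD, n = 3 each) gave a log2 fold change of 0.70 (SE 0.06, 95% interval 0.57 to 0.83, edgeR adjusted p = 0.0022), a 1.62-fold rise. Among same-numbered samples the folds were 1.77, 1.55 and 1.58. Frzb was the only one of the 8 genes called in every alternative run, including the 6 fits that left out 1 sample (log2 fold change 0.655 to 0.737, adjusted p 0.00424 to 0.0157).

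Sfrp2 (ENSMUSG00000027996, chromosome 3, 83766321 to 83774316, plus strand), an SFRP gene known from matrix-producing fibroblasts, had the largest fold change of the 5 tested genes at the lowest level. It had 26, 33 and 26 counts in control and 65, 100 and 60 counts in DKK1 replicates 1 to 3. These correspond to 1.15, 1.17 and 1.15 CPM against 2.27, 2.88 and 2.60 CPM, so the groups were well apart. The log2 fold change was 1.15 (SE 0.19, 95% interval 0.72 to 1.59, edgeR adjusted p = 0.0336), a 2.22-fold rise, with folds of 1.97, 2.47 and 2.27 between same-numbered samples. The control libraries varied by a CV of 0.891%, below the 18.8% that counting error alone gives at this number of counts, so their close agreement understates the error. The call was lost in each of the 6 fits that left out 1 sample (adjusted p 0.0771 to 0.148) and when libraries were thinned to the smallest total count (adjusted p = 0.065). It was called with the replicate block in edgeR (adjusted p = 0.00196) but not with the block in DESeq2 (adjusted p = 0.073), nor with the block in edgeR when replicate 2 was left out (adjusted p = 0.0549). The log2 fold change stayed between 1.06 and 1.24 throughout. Sfrp2 shares 347 exonic bases with Gm26771, an antisense gene, and whether the counting used strand is not given in the sources used here; Gm26771 had at most 1 count in any library.

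Of the other SFRP genes, Sfrp4 (ENSMUSG00000021319, chromosome 13, 19623104 to 19632994) had 0, 2 and 4 counts in control and 3, 5 and 1 in DKK1 replicates 1 to 3. Sfrp5 (ENSMUSG00000018822, chromosome 19, 42197971 to 42202252) had 0 counts in the 3 control libraries and 1, 0 and 1 in the DKK1 libraries. The Wnt-binding inhibitor gene Wif1 (ENSMUSG00000020218, chromosome 10, 121033960 to 121100650) had 1, 3 and 1 counts in control and 1, 6 and 1 with DKK1. These 3 genes lay at or near the floor of 3 counts per library, which is 0.0864 to 0.133 CPM depending on the depth. A difference between the groups was not detectable at this depth, and no fold is given. This floor takes in only the error of counting, since PCR copies without molecular barcodes do not stand for separate molecules.

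Dkk2 (ENSMUSG00000028031, chromosome 3, 132085292 to 132180304, plus strand) encodes a Dickkopf protein that binds LRP5 and LRP6 and has been described as an inhibitor or an activator depending on the cell. Its level was 59.5, 52.8 and 53.1 CPM in control and 51.9, 50 and 47.0 CPM in DKK1 replicates 1 to 3. All DKK1 libraries were below all control libraries, though the nearest values were close. The means were 55.1 ± 3.78 and 49.7 ± 2.48 CPM (SD, n = 3 each), with a log2 fold change of -0.15 (SE 0.06, 95% interval -0.29 to -0.01, edgeR adjusted p = 0.404). Leaving out 1 sample moved it between -0.187 and -0.0949, the latter without control replicate 1. In the fit with the replicate block it was -0.15 (SE 0.04) and was called (adjusted p = 0.023). That call was lost when any 1 pair was left out, with adjusted p of 0.0602 to 0.105, and DESeq2 with the block did not make it.

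Dkk3 (ENSMUSG00000030772, chromosome 7, 112116017 to 112159057, minus strand), the most abundant of the 8 in control cells, stood at 158, 140 and 123 CPM in control and 145, 128 and 110 CPM in DKK1 replicates 1 to 3. The groups overlapped, yet each DKK1 sample was below the control sample of its number, at 0.915, 0.917 and 0.899 of its level. The spread within a group, 17.7 CPM (SD, n = 3) in control and 17.1 CPM with DKK1, was larger than the difference between the means of 140 and 128 CPM. The log2 fold change of -0.14 (SE 0.11, 95% interval -0.39 to 0.12) was not called by group only (edgeR adjusted p = 0.745). Leaving out 1 sample moved it between -0.237 (without DKK1 replicate 1) and -0.0431 (without DKK1 replicate 3); it was -0.044 without control replicate 1 and -0.231 without control replicate 3. With the replicate block its SE was 0.03 and it was called (adjusted p = 0.00281); it was not called when replicate 2 was left out (adjusted p = 0.0526), and DESeq2 with the block did not call it.

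**Figure D2:**
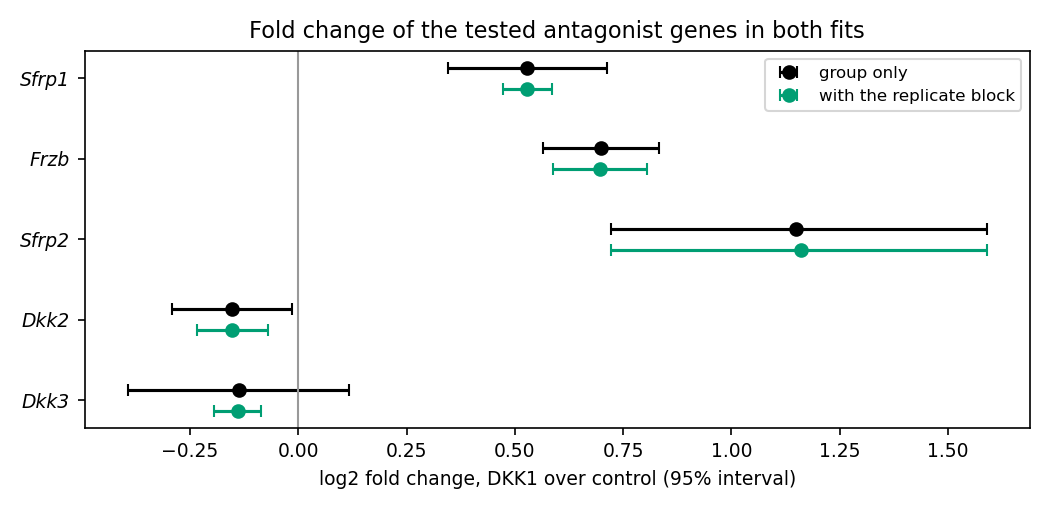
Log2 fold change of DKK1 over control for the 5 tested antagonist genes, with 95% intervals, in the fit by group only (black) and with the replicate block (green). The intervals of Sfrp1, Frzb and Sfrp2 lie above 0 in both fits, and those of Dkk2 lie below 0 in both. That of Dkk3 spans 0 by group only and lies below 0 with the block.

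The 5 tested genes differed in how their libraries varied. Across the 6 libraries, log2 CPM of Sfrp1, Sfrp2 and Frzb correlated with one another at Pearson's r of 0.924 to 0.958, and that of Dkk2 and Dkk3 at 0.864. Between an SFRP and a Dickkopf gene, r ran from -0.749 (Sfrp2 with Dkk2) to -0.13 (Sfrp1 with Dkk3). These values describe 6 libraries in 2 groups, share the libraries' depth, and hold the group difference itself. Sfrp1 and Dkk3 were each lowest in replicate 3 of both groups, the replicate with the most RNA of other cell types. In the DKK1 group Frzb and Dkk2 were also lowest in replicate 3, while in control they were not. Without replicate 3 of both groups, Sfrp1 and Frzb were still called by group only (log2 fold changes 0.549 and 0.719, both adjusted p = 0.00821), and Sfrp2 was not (1.15, adjusted p = 0.117).

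Levels of different genes were compared per kilobase of merged exons, in CPM per kilobase. In control the order was Dkk3 (41.8 ± 5.28), Sfrp1 (29.0 ± 2.14), Dkk2 (14.9 ± 1.02), Frzb (7.02 ± 0.244) and Sfrp2 (0.537 ± 0.00479; SD, n = 3 each), and no neighbours in it overlapped. Dkk3 was at the 92.6th percentile of all tested genes, Sfrp1 at the 88.6th, Dkk2 at the 77.8th, Frzb at the 60.9th and Sfrp2 at the 16.6th. With DKK1, Sfrp1 (41.9 ± 4.13) and Dkk3 (38.1 ± 5.10) overlapped in their ranges, followed by Dkk2 (13.4 ± 0.668), Frzb (11.5 ± 0.644) and Sfrp2 (1.20 ± 0.142). Within a library, the log2 ratio of Sfrp1 to Dkk3 per length was -0.693, -0.426 and -0.451 in control and 0.00268, 0.247 and 0.184 in DKK1 replicates 1 to 3. Sfrp1 was thus below Dkk3 in each control library and level with or above it in each DKK1 library. Summed over the 8 genes, the level per length was 99.7, 94.8 and 85.1 in control and 114, 110 and 95.1 with DKK1. The 5 SFRP genes made up 36.6%, 41.0% and 40.2% of that sum in control replicates 1 to 3 and 49.7%, 52.8% and 52.0% in DKK1 replicates 1 to 3. The share of SFRP transcripts was thus higher in each DKK1 library, with Sfrp1 alone going from 29.2% to 32.7% in control to 38.0% to 41.3% with DKK1. Levels of Wif1, Sfrp4 and Sfrp5 were at most 0.0712 CPM per kilobase in any library. Using the longest transcript in place of merged exons left the order as it was.

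**Figure D3:**
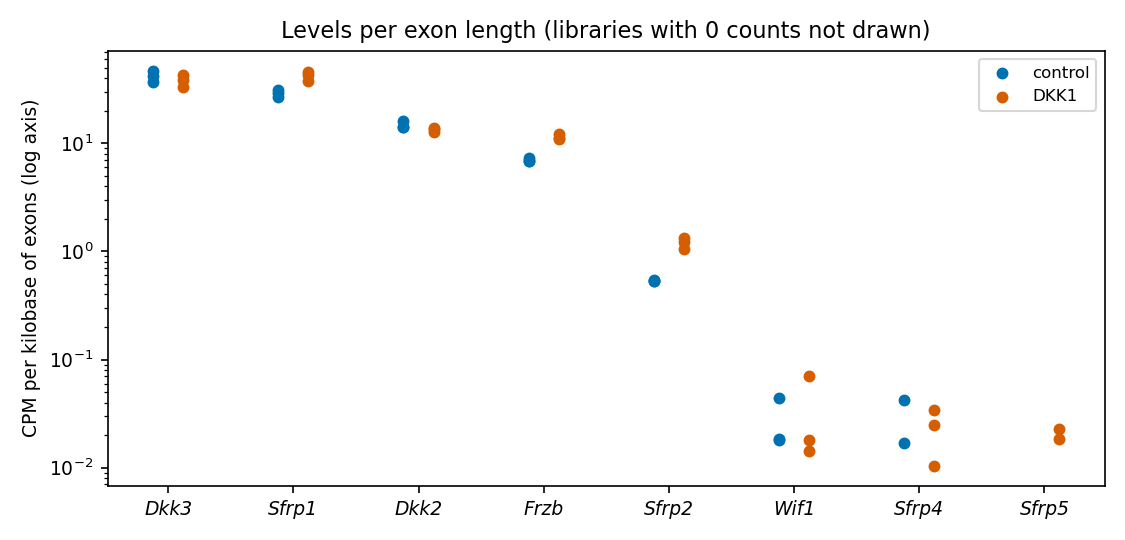
Level of the 8 antagonist genes in CPM per kilobase of exons (log axis) in each control (blue) and DKK1 (orange) library, ordered by the control mean; libraries with 0 counts are not drawn. Sfrp1 in DKK1 libraries reached the range of Dkk3, and Wif1, Sfrp4 and Sfrp5 stayed at or below 0.0712.

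The genes whose pattern over the 6 libraries was most like that of each called antagonist were sought among 13015 tested genes averaging 1 CPM or more (log2 CPM with a prior count of 2). For Sfrp1 they were Tpi1, Lpar1 and Vdr (Pearson's r of log2 CPM 0.997, 0.996 and 0.995). For Frzb they were Hif1a, Zfp703 and Spry2 (0.993, 0.991 and 0.99), and for Sfrp2 Acvr1b, Tmtc2 and Zc3hc1 (0.992, 0.99 and 0.989). Of the 13015 genes, 105, 128 and 97 reached an r of 0.95 with Sfrp1, Frzb and Sfrp2; these values rest on 6 libraries and hold the group difference.

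Among the other genes of the pathway, 0 of the 51 tested were called in the fit by group only (edgeR), beside 131 of all 14635 tested genes. In that fit 7 of the 51 had an unadjusted p under 0.05, beside 1544 of all tested genes. Among the 51, limma-voom called 0, beside 130 of all 14635 genes. DESeq2, run on 23883 genes without the low-count filter, called 1 (Rspo3), beside 289 of all genes. Without that filter edgeR also called Rspo3 alone, beside 329 of all 23883 genes. With the replicate block in edgeR, 9 were called, 6 higher and 3 lower, beside the 4.96% and 4.46% of all genes given above. The median log2 fold change of the 51 was -0.03, against -0.00091 for all tested genes. Of 14 other extracellular Wnt inhibitors, 7 were tested (median 0.01). With the block Igfbp4, an IGF-binding protein that also restrains Wnt signalling, was called higher (log2 fold change 0.22, SE 0.04, adjusted p = 0.00168), and Trabd2b, a protease that inactivates Wnt ligands, was called lower (-0.32, SE 0.08, adjusted p = 0.0186). The endogenous Dkk1 gene had at most 3 counts in any library and Dkk4 had 0 counts in all of them. Notum, a feedback inhibitor that strips the lipid from Wnt ligands, was not called in either fit (0.39 by group only, edgeR adjusted p = 0.763). It averaged 0.433 CPM in control and 0.577 CPM with DKK1, and its interval by group only was wide (-0.385 to 1.17).

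Of 19 Wnt ligand genes, 10 were tested (median 0.08), and Wnt11 was called higher with the block (0.42, SE 0.08, edgeR adjusted p = 0.00509). Of the 4 R-spondin genes, whose products strengthen Wnt signals, 2 were tested. Rspo3 measured 19.0, 23.6 and 21.2 CPM in control and 28.2, 30.6 and 27.7 CPM with DKK1, with no overlap. The groups did not overlap for 9 of the 51 tested pathway genes, beside 16.5% of all tested genes. Rspo3 was not called by group only (0.43, SE 0.08, edgeR adjusted p = 0.0634) and was called with the block (edgeR adjusted p = 0.000122). Of 23 receptor and co-receptor genes, 21 were tested (median -0.04). With the block Fzd1 was called higher (0.18, SE 0.04, adjusted p = 0.00512) and Fzd5 lower (-0.19, SE 0.04, adjusted p = 0.0141). The DKK1 receptor genes Lrp5 and Lrp6 had log2 fold changes of -0.01 and -0.04 in both fits and were not called. Of 12 beta-catenin target and feedback genes, 11 were tested (median -0.09). With the block Nkd2 and Dact1, both intracellular modulators of the pathway, were called higher (0.32, SE 0.07, and 0.38, SE 0.06, adjusted p = 0.0126 and 0.00179), and Ccn4 was called lower (-0.19, SE 0.02, adjusted p = 2.42e-05). Axin2, a widely used readout of beta-catenin activity, was not called in either fit (edgeR adjusted p = 0.899 and 0.781). Its level was low, at 1.21 CPM in control and 1.1 CPM with DKK1 on average. By group only its log2 fold change was -0.163 (SE 0.267), with an interval of -0.772 to 0.447. So wide an interval cannot tell an unchanged Axin2 from a fall or a rise within it. Of these 9 blocked calls, those of Rspo3, Ccn4 and Dact1 were also made in edgeR with pair 2 left out, and those of Igfbp4, Rspo3, Fzd1 and Ccn4 in DESeq2 with the block. The calls of Trabd2b, Wnt11, Fzd5 and Nkd2 were made in neither.

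**Figure D4:**
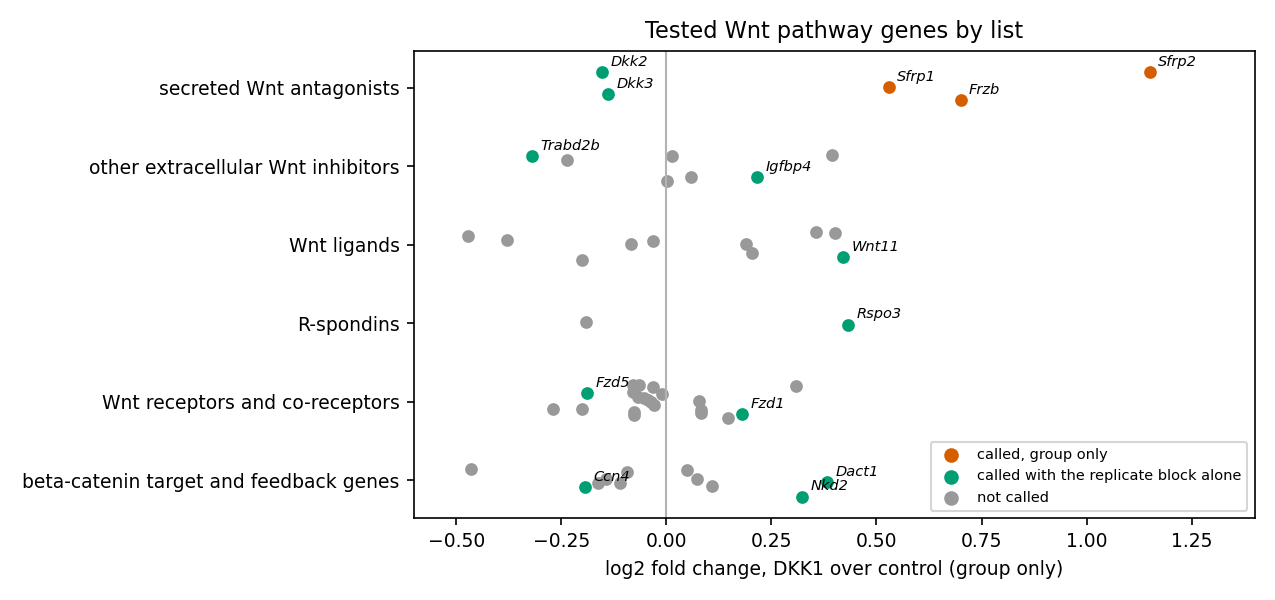
Log2 fold change of DKK1 over control (fit by group only) of the tested secreted Wnt antagonists and of the tested genes of 5 Wnt pathway lists; each point is a gene. Orange points were called by group only, green ones with the replicate block alone, and grey ones in neither fit. All 3 orange points are SFRP genes, which were chosen with this contrast in view. By group only, 0.697% of all tested genes were called higher and 0.198% lower.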

How the data were processed

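RNA of 3 control and 3 DKK1-treated samples of cultured mouse lung fibroblasts was analysed from 1 table in which the authors deposited expected counts per gene; it is named as RSEM output. STAR, RSEM, edgeR 4.2.1 and the build GRCm38 (mm10) are named in the submitters' processing notes; the annotation release, strandedness and filters are not given in the sources used here. Of the values, 9.62% to 10.6% per library were not whole; those of the 8 antagonist genes were all whole. Symbols were found for 98.8% of the 45706 identifiers, and exon lengths came from GENCODE M21 (GRCm38).

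Expected counts were rounded and tested with edgeR 4.0.16 in R 4.3.3: filterByExpr (minimum count 10), TMM scaling, glmQLFit and glmQLFTest, two-sided, with group as the only term and Benjamini-Hochberg adjustment over all 14635 genes. SEs are the absolute log2 fold change over the square root of F. CPM use whole library totals. Alternatives were DESeq2 1.42.0 (without filterByExpr), limma-voom (limma 3.58.1), other scalings and filters, libraries thinned to the smallest total, unrounded counts, samples left out, and the replicate block; leaving out replicate 3 of both groups was added after seeing the data. Scripts were tested on simulated data. Within a group, no library was a copy of another (chi-square per degree of freedom 4.90 to 7.63).

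Replicate numbers come from the sample titles, which leave the meaning of a number unstated. After subtracting group means, samples of the same number correlated across tested genes at 0.274, 0.23 and 0.405, each over the 0.1 set for treating the numbers as pairs. Samples of different numbers correlated at -0.283 to 0.0751. Since the labels name edgeR but no design, the fit by group only was the main one and the block an alternative.

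The 8 genes, the pathway and marker lists and the rule for named genes (all 8, pathway genes called in either fit, those with at most 10 counts in every library where their number is given, which it is not here, and the 3 genes most like each called antagonist) were chosen with earlier results of these data known. Dkk1, Dkk4, Lrp5, Lrp6, Axin2, Notum and the marker genes given by name were named after their values were seen.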

Additional observations from a re-analysis of the deposited data

How the results depend on the processing

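No log2 fold change of the 5 tested antagonist genes changed sign in any of the 20 alternatives. Their number called, 3 in edgeR by group only, was 5 with the replicate block in edgeR, 2 with DESeq2 and the block, 2 with libraries thinned to the smallest total count (Sfrp1 and Frzb in both), 4, 2 and 4 with the block and pair 1, 2 or 3 left out, and 1 to 2 in the 6 fits that left out 1 sample (2 only without DKK1 replicate 3). Calls over all genes, 131 by group only (102 higher, 29 lower), were 329 without a low-count filter, 289 with DESeq2 and 551 with DESeq2 and the replicate block (both also without that filter, on 23883 genes), and 1379 with the replicate block in edgeR, where the share called higher went from 77.9% to 52.6%. Leaving out 1 sample gave 36 to 139 calls, and leaving out pair 1, 2 or 3 with the block gave 1312, 612 and 1059. Pathway genes called, 0 by group only, numbered 1 without the filter and with DESeq2 (Rspo3 in both), 4 with DESeq2 and the block, 9 with the block in edgeR, and 10, 3 and 10 with the block and pair 1, 2 or 3 left out. The causes were not tested. Fits with the block and a pair left out hold few libraries for the terms fitted, so a call kept in them adds little. With all samples, the block changed no call of Sfrp1, Sfrp2 or Frzb in edgeR; without replicate 3, Sfrp2 was called with the block (adjusted p = 0.0161) and not by group only (0.117). Sfrp2 had 85 counts over the 3 control libraries, and Sfrp4, Sfrp5 and Wif1 had too few counts for a comparison.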
